A study of Homo sapiens with 24 samples.

Results

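The complement genes described here were 9 rows of a gene count table that held 59609 named rows in all: the components C3, C1R, C1S and CFB, the fluid-phase regulators CFI and SERPING1, and the membrane regulators CD46, CD55 and CD59. They were chosen by name, for their place in the complement system, with earlier results of these data known. No count or fold change enters the rule. The counts came from 3′-end messenger RNA sequencing of established human breast cancer cells of 2 lines, MDA-MB-231 and also MDA-MB-453, both given as wild-type by genotype and both described by the study as oestrogen receptor-negative. Each line was treated for 5 days with DMSO (the vehicle), with 500 nM abemaciclib (an inhibitor of the cell cycle kinases CDK4 and CDK6), with 5 nM fulvestrant (a degrader of the oestrogen receptor) or with the drugs in combination. Each of these 8 groups had 3 libraries. The lines were grown in different media, RPMI-1640 for MDA-MB-231 and DMEM for MDA-MB-453, so that a difference between the lines cannot be told apart from a difference between the media. The study describes the 3 libraries of a group as independent biological replicates from an experiment done once, so the p-values measure the spread within that experiment.

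Complement is a cascade of plasma proteins that is started by antibody and C1 (of which C1R and C1S are the proteases), by lectins, or by slow turnover of C3 with factor B (CFB). The routes meet at the cleavage of C3 and can end in the membrane attack complex, which makes pores in a target membrane. Nucleated cells carry membrane regulators against their own complement, and tumour cells are known to express them: CD46 is the cofactor with which factor I (CFI) cuts C3b and C4b, CD55 takes apart the convertases that cleave C3, and CD59 blocks the last step, the insertion of C9. CD55 and CD59 are held in the membrane by a glycosylphosphatidylinositol (GPI) anchor, whereas CD46 spans it. SERPING1, the C1 inhibitor, inactivates C1R and C1S in plasma. Most of the soluble proteins are made by the liver.

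Library totals were between 2873558 and 4158762 counts. The share of counts on mitochondrially encoded genes was 8.69% to 14.0% for MDA-MB-231 and 13.3% to 25.5% for MDA-MB-453, and was higher with abemaciclib: 8.83% ± 0.213 with DMSO against 12.2% ± 1.05 with abemaciclib for MDA-MB-231, and 15.2% ± 0.650 against 23.8% ± 1.91 for MDA-MB-453 (SD, n = 3 each). The lines were set apart by their markers. Genes of luminal epithelium summed to 498 to 645 CPM (counts scaled to a library total of 1000000) in the libraries of MDA-MB-231 and to 4764 to 6448 CPM in MDA-MB-453, while mesenchymal and basal genes summed to 2412 to 3308 CPM in the first line and to between 0 and 2.10 CPM in the second. Of 6 leukocyte markers 5 had no count in either line and the sum did not pass 0.296 CPM, the 4 hepatocyte markers summed to at most 1.68 CPM and the 3 endothelial markers to at most 3.99 CPM.

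Only the membrane regulators were expressed at a level that could be measured well. Their promoters are shown because CD46 and CD55, which lie in the same orientation in a cluster of complement regulator genes on chromosome 1, went in opposite directions in MDA-MB-453, as described below. Each run is the 250 bases before the gene's RefSeq start (the first one listed where there were several), 5′ to 3′ on the gene's strand (plus for CD46 and CD55, minus for CD59), in GRCh38.p14, with a match to a searched motif in capitals.
CD46, chr1:207751788-207752037: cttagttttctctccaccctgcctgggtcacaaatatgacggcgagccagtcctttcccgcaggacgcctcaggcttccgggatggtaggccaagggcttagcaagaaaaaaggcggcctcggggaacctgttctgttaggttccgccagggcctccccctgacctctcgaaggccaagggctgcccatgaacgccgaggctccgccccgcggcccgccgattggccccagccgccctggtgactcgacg
CD55, chr1:207321428-207321677: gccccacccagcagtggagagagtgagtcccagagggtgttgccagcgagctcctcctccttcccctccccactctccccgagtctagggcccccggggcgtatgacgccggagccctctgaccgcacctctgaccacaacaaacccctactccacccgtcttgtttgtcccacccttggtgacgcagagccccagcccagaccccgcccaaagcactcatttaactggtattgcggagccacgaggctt
CD59, chr11:33736480-33736729: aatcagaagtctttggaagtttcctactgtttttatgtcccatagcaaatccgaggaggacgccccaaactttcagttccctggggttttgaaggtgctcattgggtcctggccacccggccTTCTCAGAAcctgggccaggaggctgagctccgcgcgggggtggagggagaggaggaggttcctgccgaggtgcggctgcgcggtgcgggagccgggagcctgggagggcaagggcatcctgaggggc

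Entries were found for 6 of the 9 genes (CD46, CD55, CD59, C1R, CFB and CFI). Both strands of these windows were searched for 4 motifs of factors that are known to drive complement genes in inflammation: the interferon-stimulated response element, the NF-kB motif, TTCNNNGAA for STAT factors and TTGCNNAA for C/EBP factors. Across 27305 promoters of the same length these letters were held by 3.07%, 22.1%, 6.78% and 9.13%. The CD46, CD55 and CFI windows held none of the 4 motifs, and that of C1R held 1 C/EBP match. The CD59 window held a STAT match, TTCTCAGAA, which reads the same motif on both strands and begins 128 bases before the start. The window of CFB, a gene with no counts here, held 2 NF-kB matches, an interferon-stimulated response element and a STAT match, none of which overlapped. The windows of the membrane regulators were 64.8% (CD46), 64.0% (CD55) and 62.0% (CD59) G or C, against a median of 58% over all promoters. A match is a description of letters only.

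By GENCODE release 44 (GRCh38), CD46 lies at chr1:207752037-207795513 and CD55 at chr1:207321519-207386804, both on the plus strand, and CD59 at chr11:33703010-33736479 on the minus strand. C3 lies at chr19:6677704-6730562 (minus), C1R at chr12:7080214-7092540 (minus), C1S at chr12:6988259-7071032 (plus), CFB at chr6:31945650-31952086 (plus), CFI at chr4:109731008-109802150 (minus) and SERPING1 at chr11:57597387-57619171 (plus). The start of the gene model lies inside the searched window for CD55, C1R and CFI, and is the last base of the window for CD46. The CFB window lies wholly past the start of the CFB gene model. The last 500 exon bases of the gene model were shared with no other annotated gene for 8 of the 9 genes. For CFB, 192 of them were shared with a read-through gene (ENSG00000244255) on the same strand. Reads of this kind mostly come from the end of a transcript, which need not be the end of the gene model. Where the reads of each gene lay was not examined. In the rest of the gene model, CFI shared 1562 of its 5319 exon bases with a read-through gene (ENSG00000285330). CD46 shared 797 of 15505 with MIR29B2CHG on the opposite strand. On the same strand CD59 shared 629 of 10557 with a protein-coding gene (ENSG00000284969), C1R 672 of 5803 with C1RL, C3 1357 of 11577 with a long non-coding RNA (ENSG00000276980) and C1S 229 of 8295 with a protein-coding gene (ENSG00000290146). Reads in such bases can be left uncounted or split. The counts were made against GENCODE release 35, not 44, and whether any reads were lost or split here was not tested.

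The components of the cascade were nearly absent. C3, the central component, CFB, the protease of the alternative pathway, and CFI had 0 counts in all 24 libraries, in every treatment of either line. A count of 0 allows up to 3 counts, which is 0.0351 CPM over the 24 libraries, 0.0688 CPM over the 12 of MDA-MB-231 and 0.0718 CPM over the 12 of MDA-MB-453. These limits cover counting error only. C1S had 1 count in all, in an abemaciclib library of MDA-MB-453. SERPING1 had 0 counts in the 12 libraries of MDA-MB-453 and 10 counts in MDA-MB-231, of which 7 (2, 4 and 1) were in the abemaciclib libraries. The other MDA-MB-231 libraries held 0, 1 and 0 counts of SERPING1 with DMSO, 0 in each with fulvestrant, and 1, 1 and 0 with the combination. SERPING1 did not pass the filter on low counts and was not tested.

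C1R was the only component that passed the filter on low counts, which it did in the 12 libraries of MDA-MB-231 and in all 24 together, but not in the 12 of MDA-MB-453. Its counts in MDA-MB-231 were 1, 5 and 5 with DMSO, 5, 12 and 13 with abemaciclib, 3, 0 and 2 with fulvestrant and 11, 3 and 4 with the combination. The abemaciclib libraries met the DMSO libraries at 5 counts, and the difference was 1.36 on the log2 scale (SE 0.79, 95% confidence interval −0.24 to 2.96), with an adjusted p of 0.191 by edgeR's quasi-likelihood test, adjusted by Benjamini-Hochberg over all 11314 genes tested in that line. That test and adjustment, with a threshold of 0.05, stand behind each adjusted p and each call given here. In MDA-MB-453, C1R had 3, 5 and 2 counts with DMSO, 5, 0 and 0 with abemaciclib, 2, 1 and 1 with fulvestrant and 11, 0 and 0 with the combination, so that 16 of its 30 counts were in 2 libraries. Between the lines C1R was not called, with log2 values of −0.16 for the DMSO levels (95% interval −2.20 to 1.87), −2.29 for the abemaciclib effect (−5.21 to 0.64) and −0.21 for the combination effect (−2.99 to 2.58). Without MDA-MB-453 abemaciclib replicate 1, which held the 5 counts, the second became −6.22 with an adjusted p of 0.0496. That group then held 0 counts of C1R, so the size of this value depends on the fit.

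**Figure D1:**
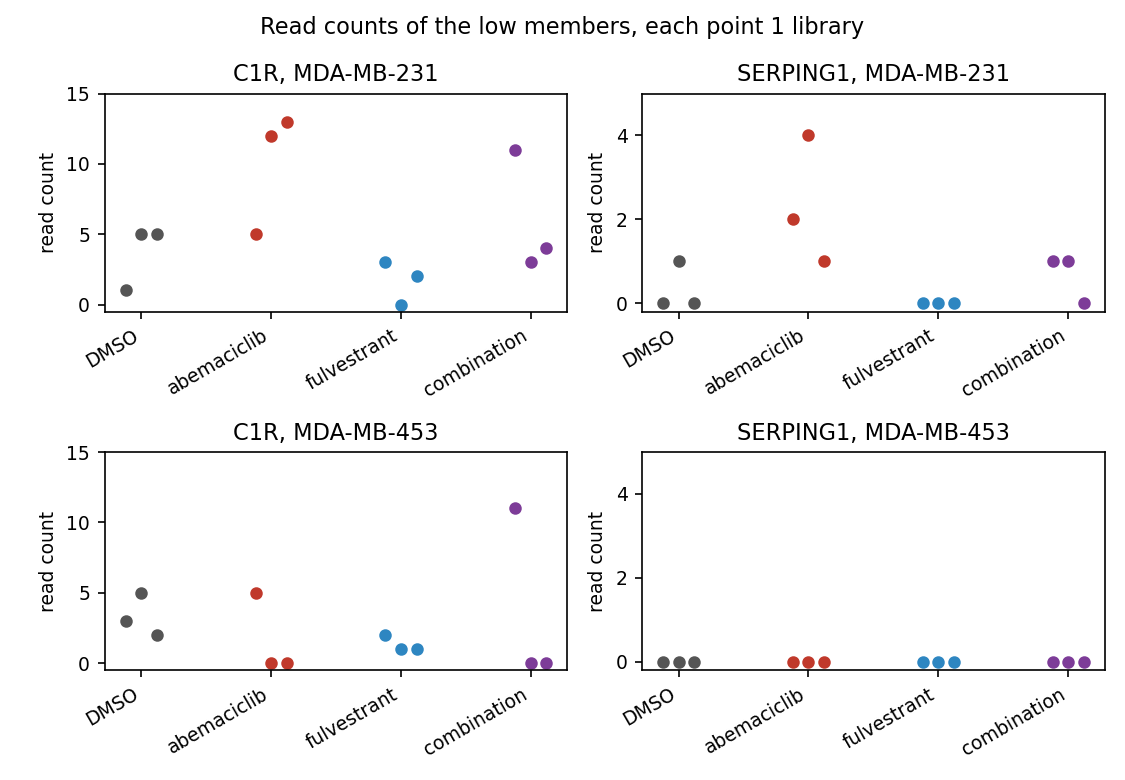
Read counts (y axis) of C1R (left) and SERPING1 (right) in MDA-MB-231 (top) and MDA-MB-453 (bottom) by treatment (x axis), each point 1 library. No library passed 13 counts of C1R or 4 of SERPING1, and SERPING1 was at 0 in every MDA-MB-453 library.

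CD59 rose with abemaciclib in both lines. In MDA-MB-231 its level was 208, 202 and 180.2 CPM in the DMSO libraries and 583, 500.3 and 554 CPM in the abemaciclib libraries. The means were 197 ± 14.6 and 546 ± 42.1 CPM (SD, n = 3), a 2.78-fold rise (log2 1.48, SE 0.10, adjusted p = 3.9e-16). In MDA-MB-453 it was 131, 132 and 149.7 CPM with DMSO and 349.9, 285 and 325 CPM with abemaciclib. The means there were 138 ± 10.3 and 320.2 ± 32.7 CPM, a 2.31-fold rise (log2 1.21, SE 0.10, adjusted p = 1.7e-13). The lowest abemaciclib library stood above the highest DMSO library in each line, and the groups of 44.2% of all tested genes in MDA-MB-231, and 45.3% of 11080 for the other line, did not overlap. In bulk RNA such as this, a change in the RNA of each cell and a change in the share of cells that carry it cannot be told apart.

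The rise of CD59 was seen again in the libraries that also received fulvestrant, which share no library with the comparison above. The tests do share an estimate of the spread, drawn from all 12 libraries of the line, so their p-values are not independent. In MDA-MB-231 it was 189, 225 and 219 CPM with fulvestrant and 505, 515 and 484 CPM with the combination, a log2 difference of 1.25 (SE 0.10, adjusted p = 3.2e-14). For MDA-MB-453 the levels were 100.2, 111 and 136 CPM with fulvestrant and 279.8, 285 and 315 CPM with the combination, a log2 difference of 1.35 (SE 0.10, adjusted p = 7.0e-15). With the mitochondrially encoded genes left out of the table, CD59 kept its call in each of these comparisons.

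CD46 rose with abemaciclib in MDA-MB-453. It was 92.3, 114 and 116 CPM with DMSO and 179.5, 153 and 161 CPM with abemaciclib, means of 107 ± 13.0 and 164 ± 13.7 CPM (1.53-fold, log2 0.61, SE 0.12, adjusted p = 3.5e-05). It was 105, 115 and 92.0 CPM with fulvestrant and 171, 226 and 179 CPM with the combination, means of 104 ± 11.7 and 192 ± 29.5 CPM (log2 0.88, SE 0.12, adjusted p = 2.2e-08). The pairs of groups did not overlap, as for 45.3% of genes in abemaciclib against DMSO, 46.3% in combination against fulvestrant and 49.1% in combination against DMSO.

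In MDA-MB-231, where CD46 was much lower, the difference had about the same size and did not pass the test. It was 9.82, 12.4 and 15.3 CPM with DMSO (33 to 52 counts) and 22.9, 16.3 and 19.2 CPM with abemaciclib (55 to 82 counts). The groups did not overlap, as for 44.2% of genes, and the log2 difference was 0.64 (SE 0.26, 95% interval 0.11 to 1.17, adjusted p = 0.0561). In all, 4 alternatives brought it past the threshold: leaving out DMSO replicate 3 (adjusted p = 0.0371) or abemaciclib replicate 2 (0.0475), leaving out mitochondrially encoded genes (0.0492) and fitting only the groups compared (0.0437). The levels with fulvestrant, 9.30, 11.2 and 16.5 CPM, overlapped those with the combination, 20.5, 16.0 and 14.1 CPM (log2 0.46, interval −0.08 to 0.99, adjusted p = 0.18).

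CD55 went in opposite directions in the 2 lines. In MDA-MB-453 it fell with abemaciclib, from 24.6, 18.6 and 22.5 CPM with DMSO (67 to 83 counts) to 9.88, 6.61 and 14.4 CPM (22 to 43 counts). The means were 21.9 ± 3.03 and 10.3 ± 3.89 CPM, a log2 change of −1.10 (SE 0.29, 2.15-fold lower, adjusted p = 0.00188). With the combination it was 3.50, 9.93 and 8.28 CPM, against 22.2, 21.1 and 20.5 CPM with fulvestrant, a log2 change of −1.52 (SE 0.30, 2.87-fold lower, adjusted p = 5.2e-05). Each of the 6 libraries with abemaciclib was below each of the 6 without it, the lowest being combination replicate 1 with 10 counts. How many genes separate in this way over all these libraries was not counted. The groups did not overlap for 45.3% of genes in abemaciclib against DMSO and for 46.3% in combination against fulvestrant.

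In MDA-MB-231 CD55 was higher with abemaciclib by a small margin, at 43.2, 44.6 and 45.9 CPM with DMSO and 63.8, 55.8 and 61.2 CPM with abemaciclib. The means were 44.6 ± 1.39 and 60.3 ± 4.10 CPM (1.36-fold, log2 0.44, SE 0.15, adjusted p = 0.0178). This call rested on single libraries: it was lost without DMSO replicate 1 (log2 0.42, adjusted p = 0.0584) and without abemaciclib replicate 1 (log2 0.40, adjusted p = 0.0728). With the combination CD55 was 55.4, 63.9 and 64.6 CPM, against 41.1, 46.3 and 54.1 CPM with fulvestrant, a log2 difference of 0.38 (SE 0.15, adjusted p = 0.0347). That call was lost without fulvestrant replicate 1 (adjusted p = 0.154), fulvestrant replicate 2 (0.0863), combination replicate 2 (0.102) or combination replicate 3 (0.11), and without the filter on low counts (0.0531).

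The effect on CD55 differed between the lines by a test of the difference itself. That test asks whether the effects are unequal, not whether their directions are opposite. In a model of all 24 libraries, the effect of abemaciclib on CD55 in MDA-MB-453, less the one in MDA-MB-231, was −1.54 on the log2 scale (SE 0.30, 95% interval −2.13 to −0.94, adjusted p = 8.9e-05). For the combination against DMSO it was −2.02 (SE 0.30, interval −2.63 to −1.40, adjusted p = 1.3e-06). Both differences passed the test in each of 19 alternatives, with log2 values no nearer to 0 than −1.38 and −1.78, and without the mitochondrially encoded genes, whose share was higher with abemaciclib in both lines, CD55 gave −1.61 and −2.10. For CD59 the abemaciclib effects differed by −0.26 (interval −0.55 to 0.03, adjusted p = 0.228) and for CD46 by −0.02 (interval −0.51 to 0.46, adjusted p = 1.00), neither past the threshold, which does not show that they were alike. The difference was past the threshold for 20.7% of 12750 genes tested with abemaciclib (more positive for 7.72% and more negative for 13%) and for 17.7% with the combination (6.16% and 11.6%).

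**Figure D2:**
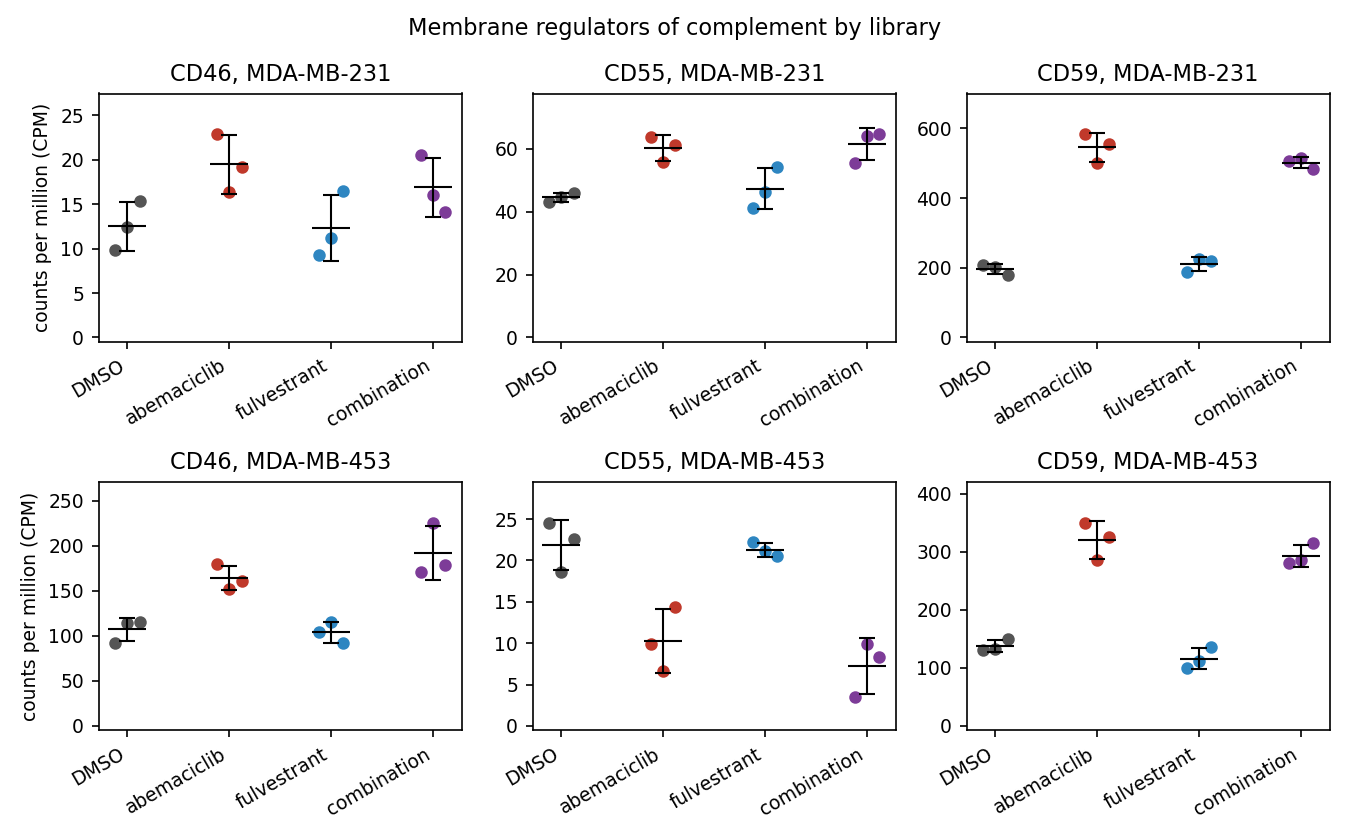
Levels of CD46, CD55 and CD59 in CPM (y axis, from 0) by treatment (x axis) in MDA-MB-231 (top) and MDA-MB-453 (bottom). Each point is 1 library, and the bars give mean ± SD (n = 3). CD59 was higher in all libraries with abemaciclib in both lines, and CD55 was higher in MDA-MB-231 and lower in MDA-MB-453.

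By count, 2 of the 4 members tested in MDA-MB-231 rose with abemaciclib (CD55 and CD59), none fell and 2 were not called. The median log2 difference of the 4 was 1.00, beside −0.00 over all genes. It lies midway between the 2 uncalled members, CD46 (0.64) and C1R (1.36). Of all genes tested in that line 33.7% were called, 16.9% higher and 16.9% lower. The 3 members tested in MDA-MB-453 were all called, 2 higher (CD46 and CD59) and 1 lower (CD55), with a median of 0.61, while 36% of all genes were called, 16.6% higher and 19.4% lower. The remaining members, 5 for MDA-MB-231 and 6 for MDA-MB-453, were too low to test. The combination against DMSO, which shares its controls with the comparison above, called the same members in the same directions: CD59 by 1.35 and CD55 by 0.46 in MDA-MB-231, where 35.4% of genes were called (17% higher and 18.3% lower, and 46.9% with groups that did not overlap). In MDA-MB-453, where 37.6% were called (17.6% higher and 20% lower), it called CD59 by 1.10, CD46 by 0.85 and CD55 by −1.55. For the combination against fulvestrant the same members were called, in the same directions, beside 36.1% of all genes in MDA-MB-231 (17.6% higher and 18.5% lower, and 45.9% with groups that did not overlap) and 36.6% for the other line (17.2% higher and 19.4% lower).

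Fulvestrant alone changed no member by this test. In MDA-MB-231 the log2 differences from DMSO were 0.10 for CD59, 0.08 for CD55, −0.02 for CD46 and −1.13 for C1R. No gene was called in that comparison (0% of 11314) by edgeR or by DESeq2, 799 had an unadjusted p under the threshold of 0.05, and 205 genes were called without fulvestrant replicate 1. The other line had 1.41% of genes called (156), a number that ran from 5 without fulvestrant replicate 2 to 786 without fulvestrant replicate 3. Its values were −0.03 for CD46, −0.03 for CD55 and −0.24 for CD59 (interval −0.46 to −0.03, adjusted p = 0.28). Without fulvestrant replicate 3 CD59 was called lower (log2 −0.36, adjusted p = 0.0229).

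Adding fulvestrant to abemaciclib likewise changed no member by this test. The combination against abemaciclib alone gave log2 values of −0.12 for CD59 (interval −0.31 to 0.06), 0.02 for CD55 (−0.26 to 0.31), −0.21 for CD46 (−0.72 to 0.30) and −0.88 for C1R (−2.37 to 0.62) in MDA-MB-231, where 0.0265% of genes were called. In MDA-MB-453, where 2.46% were, it gave −0.11 for CD59 (−0.31 to 0.09), −0.45 for CD55 (−1.09 to 0.19) and 0.24 for CD46 (0.02 to 0.47, adjusted p = 0.282). The interaction of the drugs, that is, the combined effect less both separate effects, ran from −0.22 (CD59) to 0.25 (C1R) for MDA-MB-231 and from −0.42 (CD55) to 0.28 (CD46) for MDA-MB-453, with no member called and 0.124% and 3.8% of all genes called. These numbers of genes rested on single libraries. In MDA-MB-453 the combination against abemaciclib called 273 genes, from 83 without combination replicate 2 to 518 without abemaciclib replicate 1. The interaction called 421 genes there, from 191 without fulvestrant replicate 2 to 873 without fulvestrant replicate 3. In MDA-MB-231 the interaction called 14, from 2 without abemaciclib replicate 1 or combination replicate 2 to 449 without fulvestrant replicate 1, and the combination against abemaciclib called 3, with 0 left when abemaciclib replicate 1 was omitted and 96 when abemaciclib replicate 3 was.

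**Figure D3:**
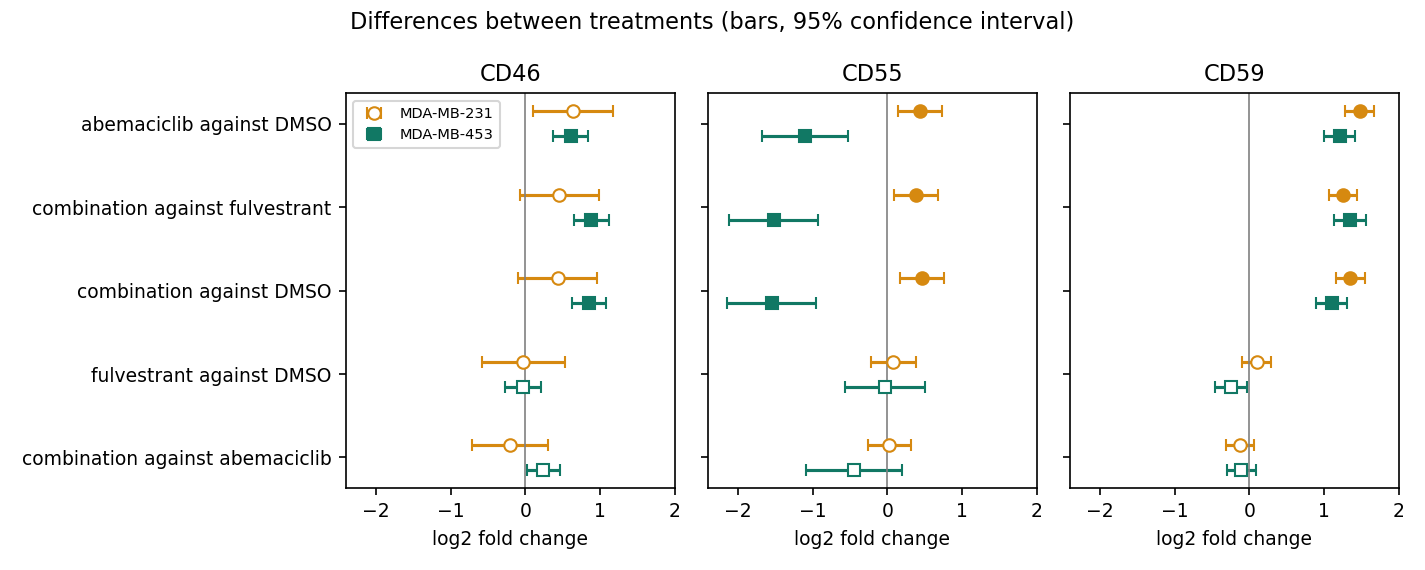
Log2 fold changes (x axis) of CD46, CD55 and CD59 in 5 comparisons of treatments (y axis), with 95% confidence intervals as bars, for MDA-MB-231 (circles) and MDA-MB-453 (squares). Filled symbols are called at an adjusted p under 0.05. For CD55 the intervals of the lines lie on opposite sides of 0 in the 3 comparisons with and without abemaciclib.

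The lines differed in their resting levels of the membrane regulators. With DMSO, CD46 was 8.56-fold higher in MDA-MB-453 (107 ± 13.0 against 12.5 ± 2.75 CPM, log2 3.10, SE 0.18, adjusted p = 1.5e-20). CD55 was 2.04-fold lower there (21.9 ± 3.03 against 44.6 ± 1.39 CPM, log2 −1.03, SE 0.20, adjusted p = 1.2e-05) and CD59 1.43-fold lower (138 ± 10.3 against 197 ± 14.6 CPM, log2 −0.51, SE 0.10, adjusted p = 2.9e-05). The DMSO libraries of the lines did not overlap for any of the 3 genes. Between the lines 69.8% of genes were called, with MDA-MB-453 higher for 34.3% and lower for 35.6%, and 72.7% did not overlap. Over the 8 groups CD46 was highest in MDA-MB-453 with the combination and lowest in MDA-MB-231 with fulvestrant, and its levels in every MDA-MB-453 group were above every MDA-MB-231 group. CD55 ran from 61.3 ± 5.09 CPM (MDA-MB-231, combination) to 7.24 ± 3.34 CPM (MDA-MB-453, combination). Within each line the neighbours in that order, DMSO beside fulvestrant and abemaciclib beside the combination, did not differ past the threshold, for CD59 as for CD55 and CD46.

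The genes whose levels followed a member most closely were found by Pearson's r of log2(CPM + 0.5) over the 12 libraries of a line. These libraries share 4 treatments, so r is high for many genes and is given as a description. For CD59 they were PRSS23 (r = 0.993), MT-CO2 (0.992) and S100A6 (0.991) for MDA-MB-231 and TSPAN1 (0.993), ATP6AP1 (0.992) and TM9SF2 (0.992) for MDA-MB-453. For CD55 they were EPHA4 (0.963), MYH9 (0.944) and CDR2L (0.943) for MDA-MB-231 and NCS1 (0.955), PLOD2 (0.947) and SH3BP1 (0.942) for MDA-MB-453. For CD46 they were RNF145 (0.949), CARD19 (0.931) and ALDH16A1 (0.926) for MDA-MB-231 and ABCC5 (0.967), EIF4A2 (0.963) and PEA15 (0.961) for MDA-MB-453. For C1R in MDA-MB-231 they were FOXA2 (0.954), QPCTL (0.912) and METTL7B (0.893). No gene was named for a member in both lines.

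Of 47 other complement genes, 23 had no count in any library, and only 6 could be tested for MDA-MB-231 and 5 for MDA-MB-453. Abemaciclib in MDA-MB-231 raised 4 of the 6 and lowered 1, with a median log2 difference of 1.21 beside −0.00 over all genes, of which 33.7% were called, 16.9% higher and 16.9% lower. C4BPB, the beta chain of C4b-binding protein, rose from 28, 13 and 23 counts to 61, 71 and 98 (log2 1.77, SE 0.30, adjusted p = 1.1e-05). It had 0 counts in all libraries of MDA-MB-453. CLU, clusterin, which binds the terminal complex, rose from 37.3 ± 1.94 to 58.8 ± 10.9 CPM (log2 0.66, adjusted p = 0.00235). Also called higher was SUSD4, a membrane protein with complement control domains, with 0, 2 and 0 counts with DMSO and 13, 10 and 9 with abemaciclib, too few for a fold change and below the level set for naming, so that it was chosen after its values were seen.

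In MDA-MB-453 abemaciclib raised 2 of the 5 testable complement genes and lowered 3, with a median of −0.64, while 36% of all genes were called. CLU rose most, from 73.3 ± 12.2 to 341 ± 29.3 CPM (log2 2.21, SE 0.11, adjusted p = 3.0e-21). With the combination CLU was 253 ± 10.4 CPM, below abemaciclib alone (log2 −0.41, adjusted p = 0.0178), a call lost in 5 of 13 alternatives. ITGB2, the beta chain of complement receptors 3 and 4, had 4, 5 and 4 counts with DMSO and 13, 22 and 18 with abemaciclib (log2 2.07, SE 0.64, adjusted p = 0.00866). SUSD4 fell from 22, 32 and 39 counts to 8, 6 and 4 (log2 −2.31, SE 0.56, adjusted p = 0.000854). CFD, factor D, which cuts factor B, fell from 17, 28 and 23 counts to 10, 9 and 5 (log2 −1.45, SE 0.49, adjusted p = 0.0175), and the call was lost without DMSO replicate 2 (adjusted p = 0.0731) or abemaciclib replicate 3 (0.0681). C1QBP, a mostly mitochondrial protein that binds C1q, was lower with abemaciclib in both lines (log2 −0.55 in MDA-MB-231, adjusted p = 0.000229, and −0.64 for the other line, adjusted p = 0.0026).

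**Figure D4:**
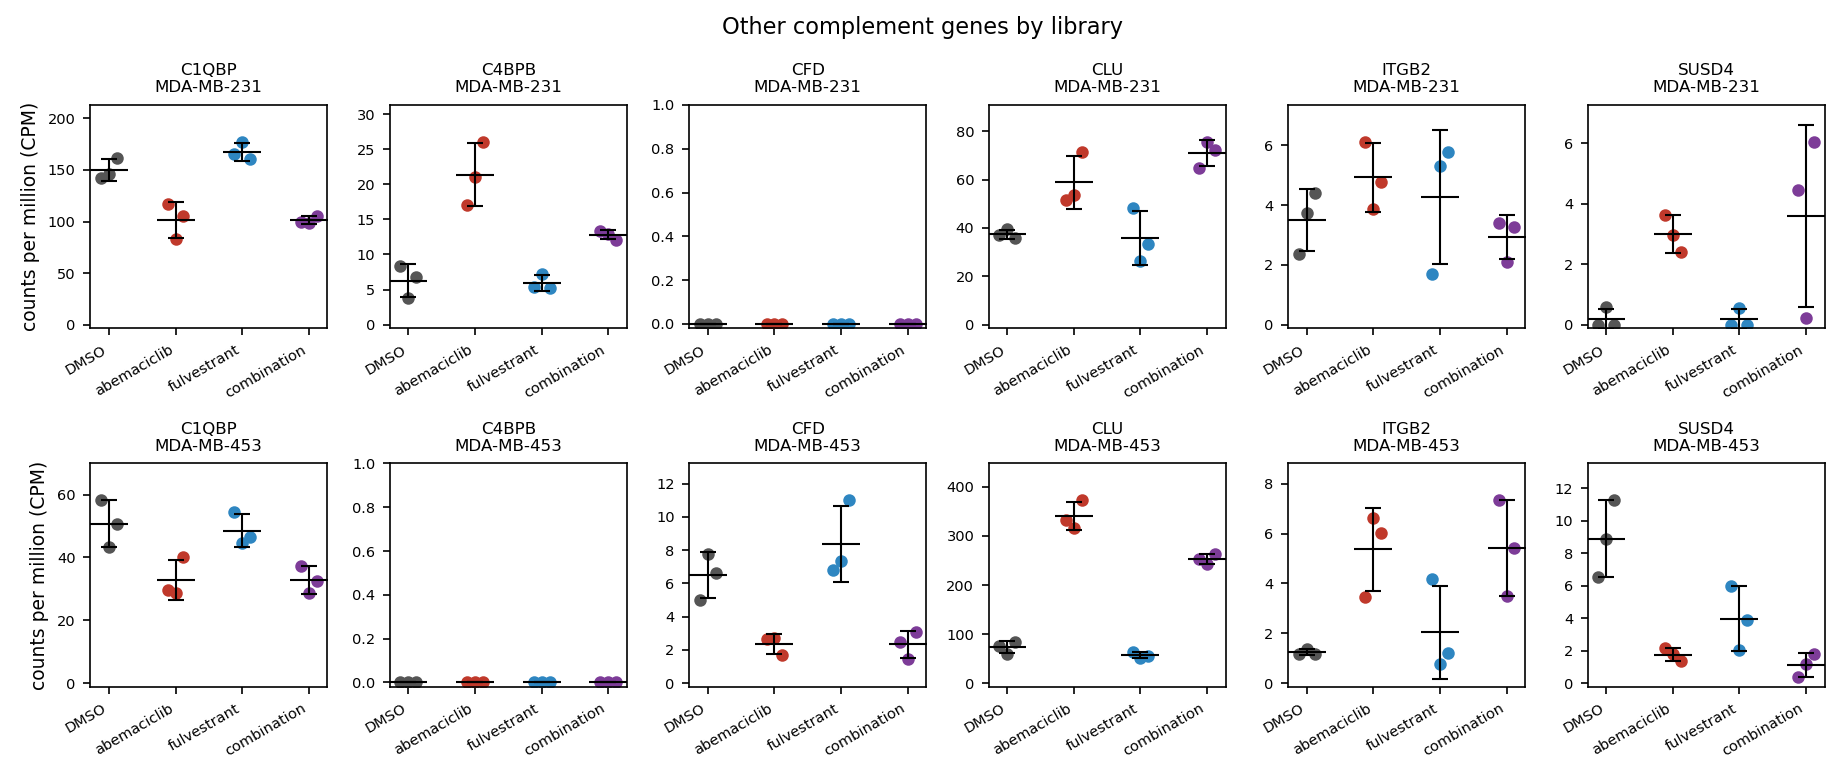
Levels in CPM (y axis) of 6 of the other complement genes, by treatment (x axis), in MDA-MB-231 (top) and MDA-MB-453 (bottom). Each point is 1 library and the bars give mean ± SD (n = 3). C4BPB was read only in MDA-MB-231 and CFD only in MDA-MB-453, while CLU rose with abemaciclib in both lines.

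Across the other comparisons the same list gave 4 higher and 1 lower in MDA-MB-231 for the combination against DMSO and against fulvestrant. Of all genes 35.4% and 36.1% were called in these. In MDA-MB-453 the list gave 2 higher and 3 lower against DMSO, and 1 higher and 3 lower against fulvestrant, beside 37.6% and 36.6% of all genes called. Fulvestrant against DMSO called 0 of the 6 and 0 of the 5. With DMSO, the lines differed in all 7 of the list's genes that were tested across them, with 3 of them higher in MDA-MB-453 and 4 lower. ITGB2 lost its call in 7 of 12 alternatives, among them a fit with a block for the replicate number, which does not compare line means here. Of all genes 69.8% were called between the lines, 34.3% higher in MDA-MB-453 and 35.6% lower.

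Of 26 listed inducers and receptors known to act upstream of complement genes, 21 were tested in MDA-MB-231, where abemaciclib raised 4 and lowered 1 (median log2 0.16), and 17 in MDA-MB-453, where it raised 3 and lowered 2 (median 0.12), while 33.7% and 36% of all genes were called. The NF-kB genes did not move as a group: NFKB1 fell in MDA-MB-231 from 49.6 ± 1.92 to 28.1 ± 1.55 CPM (log2 −0.82, adjusted p = 0.000106), and NFKB2, of the non-canonical pathway, was higher there (log2 0.88, adjusted p = 0.0129), with overlapping groups. RELB, the partner of NFKB2, was higher in MDA-MB-231 (log2 1.32, adjusted p = 0.016), as were IRF9 of the interferon pathway (log2 1.28, adjusted p = 0.00591) and IL6ST, the shared receptor chain of the interleukin-6 family (log2 0.71, adjusted p = 0.00573). These calls were lost without single libraries: NFKB2 without DMSO replicate 1 (adjusted p = 0.0859) or abemaciclib replicate 1 (0.133), RELB without DMSO replicate 3 (0.0522), abemaciclib replicate 1 (0.0556) or abemaciclib replicate 2 (0.106), IRF9 without DMSO replicate 2 (0.0532) and IL6ST without abemaciclib replicate 3 (0.0915). With the combination NFKB2 was higher against DMSO (log2 1.30, adjusted p = 0.000193) and against fulvestrant (log2 1.02, adjusted p = 0.0023), in all 13 alternatives of each. RELB was also called higher in both and lost each call in 5 of 13 alternatives.

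In MDA-MB-453 IFNGR1, a chain of the interferon gamma receptor, rose with abemaciclib (log2 1.55, adjusted p = 0.00367). STAT3, the factor of the acute-phase response, rose from 63.6 ± 5.45 to 99.3 ± 16.5 CPM (log2 0.64, adjusted p = 8.7e-05). NFKB2 was higher (log2 0.96, adjusted p = 0.00519), a call lost without abemaciclib replicate 2 (adjusted p = 0.0713). With the combination NFKB2 was higher against DMSO (log2 0.92, adjusted p = 0.00707) and against fulvestrant (log2 1.00, adjusted p = 0.00353), in all 13 alternatives of each. CEBPD, a C/EBP factor, was lower (log2 −0.97, adjusted p = 0.0353) and lost its call in 8 of 13 alternatives, and NFKB1 was lower (log2 −0.44, adjusted p = 0.0444) and lost it in 11 of 13, up to adjusted p of 0.0926 and 0.171.

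Genes that make and attach the GPI anchor of CD55 and CD59 showed no common direction with abemaciclib against DMSO. In each line 26 of the 28 were tested. Abemaciclib raised 3 and lowered 1 in MDA-MB-231 (median log2 −0.04). For MDA-MB-453 it raised 5 and lowered 2 (median 0.09). Of all genes 33.7% and 36% were called in these comparisons. In MDA-MB-231 DPM3, a subunit of the mannose donor synthase, rose from 34.1 ± 6.66 to 60.5 ± 4.71 CPM (log2 0.83, adjusted p = 9.0e-05). PIGO, which adds phosphoethanolamine, was lower (log2 −1.10, adjusted p = 0.00845), a call lost without DMSO replicate 3 (0.118) or abemaciclib replicate 1 (0.058). PGAP2, which remodels the anchor's lipid, was higher (log2 0.81, adjusted p = 0.0405) and lost its call in 6 of 13 alternatives, up to an adjusted p of 0.218.

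In MDA-MB-453 the anchor remodelling gene PGAP3 rose from 18.7 ± 0.682 to 36.5 ± 3.05 CPM (log2 0.96, adjusted p = 0.000148), and PIGQ (log2 0.81, adjusted p = 0.00107), of the enzyme that starts the anchor, rose with it. PIGP, of the same enzyme, was higher (log2 0.58, adjusted p = 0.0144) and lost its call without DMSO replicate 3 (0.0777) or abemaciclib replicate 1 (0.121), and PIGV, a mannosyltransferase, was higher (log2 1.42, adjusted p = 0.00562) and lost it without abemaciclib replicate 2 (0.0675). PIGL, the deacetylase of the second step, fell from 20 to 25 counts a library to 5 to 9 (log2 −1.68, adjusted p = 0.00967). PIGO was lower (log2 −0.41, adjusted p = 0.0489) and lost its call in 11 of 13 alternatives, up to an adjusted p of 0.176.

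For the combination against DMSO and against fulvestrant these lists gave calls in both directions. Tested were 21 inducers in MDA-MB-231, 17 in MDA-MB-453 and 26 anchor genes in each line. Of all genes, 35.4% (MDA-MB-231) and 37.6% (MDA-MB-453) were called against DMSO, and 36.1% and 36.6% against fulvestrant. The combination against DMSO called 3 inducers higher and 1 lower, and 2 anchor genes higher and 2 lower, for MDA-MB-231. For MDA-MB-453 it called 5 inducers higher and 3 lower, and 5 anchor genes higher and 2 lower. The combination against fulvestrant called 3 inducers higher and 1 lower and 3 anchor genes higher and 2 lower for MDA-MB-231, then 3 and 2 inducers and 7 and 1 anchor genes for MDA-MB-453. The anchor genes leaned higher in that last comparison, with a median log2 difference of 0.23 beside 0.01 over all genes. Fulvestrant against DMSO called 0 genes of either list. Between the lines with DMSO, 15 of 27 anchor genes tested were higher in MDA-MB-453 and 1 lower (median log2 0.91). Of 21 inducers tested, 5 were higher there and 9 lower. Of all genes 34.3% were higher and 35.6% lower.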

How the data were processed

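The deposited table held raw counts per gene for 24 libraries of a 3′ messenger RNA kit (QuantSeq FWD). Per the labels and the study's methods, the authors trimmed the reads, aligned them to hg38 with STAR and counted them with featureCounts against GENCODE release 35, and the strand setting is not given in the sources used here. The deposited counts were neither normalized nor filtered. A row without a gene name held 0 counts and was left out.

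Here edgeR 4.0.16 (R 4.3.3) was used per line, with filterByExpr, TMM factors (0.900 to 1.04) and quasi-likelihood tests on the 12 libraries, and on all 24 for differences between the lines. Benjamini-Hochberg adjustment ran over all genes tested, with a threshold of 0.05. CPM are counts scaled to a total of 1000000, with the total multiplied by its TMM factor. The floor of 3 counts over a group is 0.248 to 0.298 CPM. DESeq2 1.42.0 and the other alternatives are given in the closing section. The fit was tested on simulated data. Replicates of a group differed by more than sampling noise (chi-square per degree of freedom 2.64 to 8.65).

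The members and lists were chosen with earlier results of these data known. Named were all members, list genes called for abemaciclib with a mean of at least 5 CPM in a group (at most 6 per list and line, by size of change) and the 3 genes most alike to each tested member. Of these, 1 gene is not reported here. The positions are from GENCODE release 44 (GRCh38) and the promoters from RefSeq (GRCh38.p14).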

Additional observations from a re-analysis of the deposited data

Results flagged for a closer look

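The effects of a treatment differed between the lines for these genes by the test of the difference in the model of all 24 libraries, each given as the log2 effect for MDA-MB-453 less the one for MDA-MB-231. For CD55 the difference was −1.54 with abemaciclib and −2.02 with the combination, the gene being lower in MDA-MB-453 and higher in MDA-MB-231. For CLU it was 1.56 with abemaciclib and 0.86 with the combination, a rise in each line that was larger in MDA-MB-453. For SUSD4 it was −6.02 and −6.86, fitted values that rest on 2 counts in the DMSO libraries of MDA-MB-231 and so depend on the fit. For ITGB2 it was 2.35 with the combination, past the threshold in 8 of 19 alternatives. With abemaciclib it was 1.55 for IFNGR1 and 0.89 for PIGQ, each past the threshold in 4 of 19 alternatives, 1.15 for PIGP (15 of 19) and 0.66 for STAT3 (18 of 19). With the combination it was −0.56 for DPM3 (17 of 19).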

How the results depend on the processing

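Over the members' log2 differences, 720 of 769 alternative values kept their direction and their side of the threshold, 7 lost and 7 gained a call, and 35 changed sign, none of them a called value. The number of members called was unchanged in all 15 comparisons under the replicate block. Same-numbered libraries did not deviate together (r of −0.173 to 0.0451 for MDA-MB-231 and −0.147 to 0.0561 for MDA-MB-453 over 18 pairs each). The numbers were therefore not taken to pair them. The block turned only C1R between the lines with DMSO, from −0.16 to 1.28. In that comparison the blocked fit takes each line at its fitted replicate 1 level, so the value is not a difference of line means. The unchanged number of members called there is therefore not a check on the line means.

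With 1 library left out in turn, the number of members called in MDA-MB-231 ran from 1 to 3 for abemaciclib against DMSO and from 1 to 2 for the combination against fulvestrant (2 with all), from 0 to 1 for fulvestrant in MDA-MB-453 (0 with all) and from 1 to 2 for the abemaciclib difference between the lines (1 with all, C1R added without MDA-MB-453 abemaciclib replicate 1). Without the filter on low counts it was 1 for the combination against fulvestrant in MDA-MB-231, and with only the groups compared it was 2 for the combination difference between the lines (CD59 added). The cause was not tested.

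Signs changed among uncalled differences with a library left out. In MDA-MB-231 the ranges were −0.32 to 0.84 (C1R, combination against DMSO), −0.028 to 0.092 (CD55, combination against abemaciclib), −0.28 to 0.15 and −0.022 to 0.17 (CD46 and CD55, fulvestrant), and −0.56 to 0.92, −0.35 to 0.088 and −0.15 to 0.060 (C1R, CD46 and CD55, interaction). In MDA-MB-453 they were −0.13 to 0.054 and −0.13 to 0.063 (CD46 and CD55, fulvestrant), where library totals without TMM, added after seeing the data, gave 0.027 and 0.030. Between the lines they were −0.59 to 0.12 (C1R, DMSO), −0.26 to 0.051 (CD46, abemaciclib) and −5.36 to 0.56 (C1R, combination). C1R had 11, 0 and 0 counts with the combination in MDA-MB-453, so the end at −5.36 depends on the fit.

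The list genes named kept their calls in 1165 of 1335 values and lost them in 170. Over all genes, the calls for fulvestrant in MDA-MB-453 were 156 by edgeR and 334 by DESeq2. In MDA-MB-231 the combination against abemaciclib gave 3 and 75, and the interaction 14 and 127. At library totals of 2873558 to 4158762 counts, SERPING1 had 10 counts and C1S 1 in all, and C1R at most 13 in a library.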
